A study of Mus musculus with 12 samples.

Results

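The 10 genes described here belong to the inflammasome and pyroptosis machinery and were followed in mouse dendritic cells with and without the chromatin architectural protein CTCF, before and after stimulation with lipopolysaccharide (LPS). They were chosen by symbol, and each symbol matched 1 of the 55335 genes quantified in every library. They were the sensors Nlrp3, Nlrp1b, Nlrc4, Naip2 and Naip5, the adaptor Pycard, the caspases Casp1, Casp4 and Casp8, and the pore-forming executioner Gsdmd. All 10 passed the filter on low counts that left 14008 genes for testing, so each of the 10 was tested in every comparison.

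RNA-seq libraries were made from bone marrow cells of C57BL/6 mice aged 8 to 12 weeks, grown with GM-CSF for 6 days and enriched with CD11c microbeads (BMDCs). The 12 libraries formed 4 groups of 3 replicates. The WT group came from CreER mice, which carry the tamoxifen-inducible Cre from the Rosa26 locus, and the KO group came from CreER;CTCF fl/fl mice, so that both genotypes expressed CreER. Ctcf was deleted by adding 4-OH tamoxifen on the first day of culture. The sources used here do not say plainly whether WT cultures received 4-OH tamoxifen as well, so its own effect and that of CTCF loss cannot be told apart. The WTLPS and KOLPS groups were the same genotypes given LPS at 100 ng/ml for 3 h, and the WT and KO groups received none. The study describes its replicates as biological, but nothing in the labels says that they came from separate animals, and p-values measure the spread between these libraries, which may be technical.

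Inflammasomes are protein platforms that form in the cytosol when a sensor detects a microbial product or cell damage. The sensor recruits the adaptor ASC, encoded by Pycard, which clusters and activates caspase-1. Caspase-1 then cleaves the precursors of interleukin-1 beta and interleukin-18 and frees the N-terminal part of gasdermin D, which makes pores in the plasma membrane and ends in the lytic death called pyroptosis. In mouse, Casp4 encodes caspase-11, which binds cytosolic LPS directly and cleaves gasdermin D without an upstream sensor. In macrophages and dendritic cells, LPS sensed at the cell surface by TLR4 is known to prime this system through transcription, before any second stimulus assembles it. The measurements below are RNA levels, and neither cleavage nor cell death was measured.

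The promoter DNA of 3 of the genes is shown first, because Casp1 and Casp4 lie next to each other on chromosome 9 and responded differently, and because Nlrp3 and Casp4 had the highest fold changes with LPS of the 10 genes in both genotypes. Each line gives 250 bases upstream of a RefSeq transcript start on GRCm38.p6, all on the plus strand, at chr9:5298267-5298516 for Casp1, chr9:5308599-5308848 for Casp4 and chr11:59541319-59541568 for Nlrp3.
Casp1: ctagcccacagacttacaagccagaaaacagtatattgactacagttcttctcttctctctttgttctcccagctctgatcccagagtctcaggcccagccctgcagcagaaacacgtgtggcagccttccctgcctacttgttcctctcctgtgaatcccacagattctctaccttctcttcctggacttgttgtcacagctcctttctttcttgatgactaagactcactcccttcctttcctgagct
Casp4: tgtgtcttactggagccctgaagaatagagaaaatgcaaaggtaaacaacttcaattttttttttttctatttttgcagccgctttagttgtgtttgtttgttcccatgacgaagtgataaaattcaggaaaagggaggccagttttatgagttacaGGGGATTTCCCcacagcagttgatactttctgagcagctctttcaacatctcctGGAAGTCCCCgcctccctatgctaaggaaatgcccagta
Nlrp3: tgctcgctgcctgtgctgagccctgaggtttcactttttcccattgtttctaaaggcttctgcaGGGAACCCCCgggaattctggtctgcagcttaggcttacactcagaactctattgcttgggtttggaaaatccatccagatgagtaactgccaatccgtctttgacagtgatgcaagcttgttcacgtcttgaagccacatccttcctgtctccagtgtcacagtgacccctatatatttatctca
Capitals mark matches, on either strand, to the degenerate kappa B consensus recognised by NF-kappaB, the factor that LPS activates through TLR4. The Casp4 window held 3 matches, of which those starting at -93 and -92 from the transcript start overlap and a further match started at -39. The Nlrp3 window held 1 match, starting at -186, and the Casp1 window held none. Of 32851 mouse promoter windows of the same length, 7.25% held at least 1 match. A match describes letters only, not a bound site.

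Windows were found for 9 of the 10 genes (12 windows in all, since Nlrp3, Nlrp1b and Casp4 had 2 each), and Gsdmd was the gene with no entry. The stricter kappa B letters GGGANTTTC, present in 0.94% of all windows, the GAS letters TTCNNNGAA bound by STAT factors, present in 7.02%, and the ISRE letters GAAANNGAA bound by IRF factors, present in 7.13%, were not found in any of the 12 windows. The kappa B consensus and 3 further motifs were searched after that result was seen. Naip5 held a kappa B match at -218. The bases that follow the Naip5 and Naip2 windows were not found in the annotated transcripts of these genes, so these windows may not lie at an annotated start. The letters GAGGAAG, preferred by the myeloid factor PU.1 and present in 10.61% of all windows, occurred at -43 in Pycard, at -96 in the upstream window of Nlrp1b, and at -130 and -36 in the second window of Nlrp3, which lies at chr11:59542436-59542685. The letters TTGCNNAA, recognised by C/EBP factors and present in 9.56%, were found in Nlrc4, Nlrp1b and Pycard, and the AP-1 letters TGANTCA, present in 6.75%, in none. The second Casp4 window, at chr9:5308610-5308859 and overlapping the printed one, held the same 3 kappa B matches at -104, -103 and -50. The windows of Casp1, Casp8 and Naip2 and the second window of Nlrp1b had no match to any of the 7 patterns.

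Sequencing depth and library quality were similar across groups apart from 3 libraries. Summed expected counts ran from 12769773 to 16586334 per library. The share of ribosomal RNA genes was 5.165% in WTLPS replicate 2 and 0.383% to 1.185% in the others. WTLPS replicate 1 and KOLPS replicate 2 stood apart from their group mates, with a root mean square log2 difference of 0.517 and 0.563 over all tested genes, against 0.328 to 0.444 for the other 10. WTLPS replicate 1 was above both mates for 6 of the 10 genes and KOLPS replicate 2 for 7 of 10, while WT replicate 3 was above both of its mates for 6. Results that turn on these libraries are given with and without them.

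Ctcf itself was checked first. Ctcf had 1051, 987 and 975 normalized counts in WT and 570, 562 and 516 in KO, and after LPS 886, 817 and 745 in WTLPS and 563, 530 and 526 in KOLPS. All 6 libraries of the CTCF fl/fl genotype were below all 6 of the other. KO libraries held 54.7% of the WT mean (log2 fold change -0.87, SE 0.08, adjusted p = 3.9e-07 by edgeR's quasi-likelihood test) and KOLPS libraries held 66.2% of the WTLPS mean (-0.59, SE 0.08, adjusted p = 2.4e-05). Ctcf transcript was thus reduced and not absent in the libraries labelled KO. These counts do not measure protein. The study reports depletion of both Ctcf mRNA and CTCF protein in these cells, with CTCF binding lost or strongly reduced.

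The cell type label was checked against marker genes. All 9 dendritic cell markers, among them Itgax, H2-Aa, Cd74, Zbtb46 and Ccr7, were tested, with a summed TPM (transcript abundance scaled for length and to a fixed sum per library) of 10900 to 11400 in WT and 7420 to 7730 in KO. They did not move as 1 group, since in KO against WT 4 were lower, 1 was higher and the others were not called. The one that was higher was Itgax, which encodes the CD11c used for enrichment (log2 fold change 0.83, SE 0.08, adjusted p = 1.3e-06). All 8 macrophage and monocyte markers were tested too, with a summed TPM of 25100 to 27200 in WT and 45900 to 48400 in KO. That sum is mostly Lyz2, and of the 8 markers 4 were higher in KO (Lyz2, Csf1r, Ccr2 and Ly6c2) and 4 lower (Adgre1, Mertk, Fcgr1 and Cd14). These 8 summed to 14200 to 19000 in WTLPS and 18500 to 26100 in KOLPS, while the dendritic cell markers summed to 10800 to 14800 and 11200 to 15900. Of 8 neutrophil markers 6 were tested, the defining marker Ly6g not being among them, and their sum was 374 to 397 in WT, 192 to 224 in KO (5 of the 6 lower, 0 higher), 346 to 440 in WTLPS and 287 to 336 in KOLPS. The 3 eosinophil markers summed to 12.6 to 15.0 in WT, 19.7 to 24.4 in KO, 5.42 to 10.9 in WTLPS and 7.52 to 11.1 in KOLPS. Sums of the markers of B cells, T and NK cells, mast cells and basophils, and erythroid cells did not exceed 3.45 in any library, and Tpsb2 was at 0 in all 12. In bulk RNA, fewer cells of a type and less RNA per cell cannot be told apart, and the part of the marker shift in the results below was not tested.

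Levels of the genes in unstimulated WT cells, compared per transcript length by TPM, placed the executioner and the adaptor at the top and most of the sensors at the bottom. Gsdmd had 191 ± 2.87 TPM (SD, n = 3) and Pycard 145 ± 4.28. Casp4 followed at 84.0 ± 3.07, Casp1 at 73.4 ± 5.61 and Casp8 at 55.1 ± 1.86. Among the sensors, Naip2 stood at 43.6 to 45.7, Nlrp3 at 23.9 ± 1.48, Naip5 at 15.5 ± 0.496, Nlrc4 at 9.70 to 12.4 and Nlrp1b at 10.4 ± 0.577. Ranges of neighbours in this order did not overlap, except for Nlrc4 and Nlrp1b, the latter at 9.97 to 11.1 TPM.

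The order differed in each of the other groups. In WTLPS, Casp4 had the highest mean, 231 ± 47.8 TPM, but its range of 197 to 285 overlapped that of Gsdmd at 199 to 231. In KO, Casp4 was in sixth place at 32.1 ± 3.83 TPM and Nlrp3 in ninth at 9.32 ± 0.289, with Nlrp3 and Nlrp1b overlapping. In KOLPS, Gsdmd at 141 ± 10.2 and Casp4 at 119 ± 9.28 TPM overlapped at the top. Nlrp1b was last in both stimulated groups, at 1.58 to 1.78 TPM in WTLPS and 1.08 to 1.84 in KOLPS. Summed over the 10 genes, TPM was 643 to 665 in WT, 747 to 941 in WTLPS, 455 to 485 in KO and 554 to 580 in KOLPS, and the ranges of the 4 groups did not overlap.

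**Figure D1:**
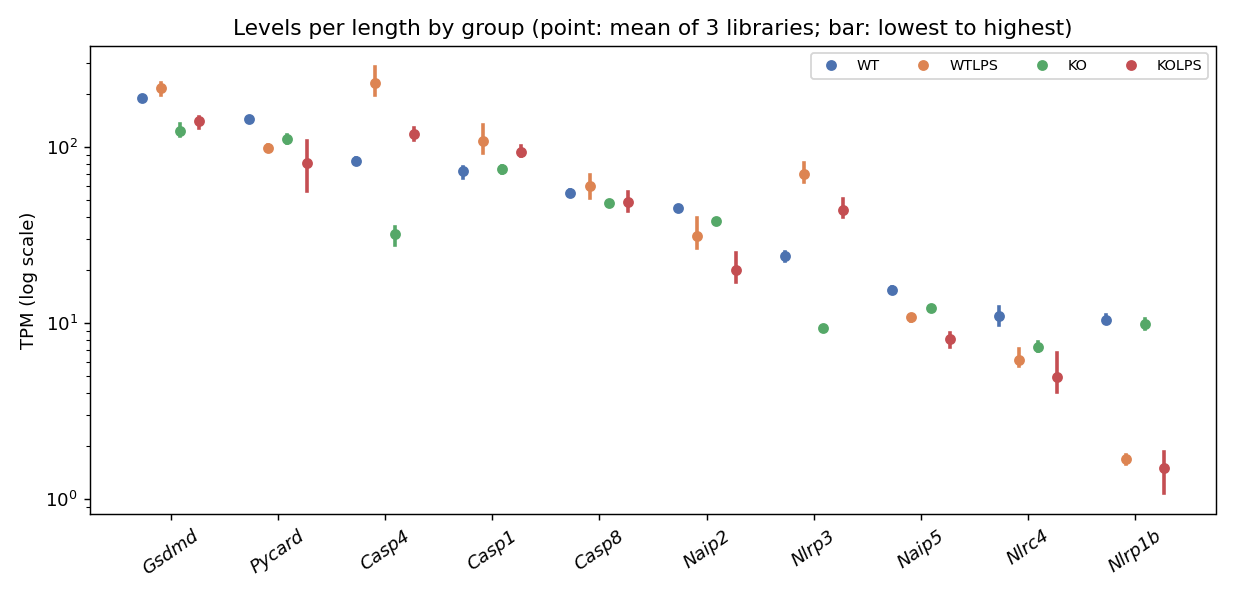
TPM on a log scale for the 10 genes in each group, ordered by the WT mean; points are means of 3 libraries and bars run from the lowest to the highest library. Gsdmd and Pycard lead in WT, Casp4 and Nlrp3 span the widest range among the genes that increased with LPS, and Nlrp1b is at 1.08 to 1.84 TPM in both LPS groups.

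The response of WT cells to LPS addressed which parts of the machinery are primed at 3 h. In the comparison of WTLPS with WT, 5 of the 10 genes rose (Nlrp3, Casp4, Casp1, Gsdmd and Casp8) and 1 fell (Nlrp1b). Among all 14008 genes, 30.0% rose and 30.2% fell at the same threshold (adjusted p under 0.05, with no fold cutoff). The median log2 fold change of the 10 genes was 0.30, and that of all tested genes was -0.02. All 3 caspases and the executioner rose, 1 of 5 sensors rose and 1 fell, and the adaptor did not pass the test.

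Nlrp3 encodes the sensor that responds to potassium efflux, pore-forming toxins and crystals, and its transcript is the classical limiting step of priming. It had 860, 942 and 1010 normalized counts in WT and 4498, 3887 and 3465 in WTLPS. The lowest stimulated library was more than 3 times the highest unstimulated library. The fitted difference was 4.21-fold (log2 fold change 2.07, SE 0.11, adjusted p = 9.5e-10). Casp4, the LPS receptor caspase-11, changed by nearly the same factor. It had 849, 891 and 921 normalized counts in WT and 4153, 3158 and 3178 in WTLPS, a 3.94-fold rise (log2 fold change 1.98, SE 0.11, adjusted p = 1.5e-09).

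Casp1 and Gsdmd rose less. Casp1 went from 1107, 998 and 1081 to 2615, 1967 and 1909 normalized counts, with WTLPS replicate 1 well above its mates. The fitted change was 2.04-fold (log2 fold change 1.03, SE 0.11, adjusted p = 2.1e-06), and 0.87 on the log2 scale without WTLPS replicate 1 and KOLPS replicate 2. Gsdmd went from 1939, 1962 and 1879 to 2892, 3221 and 3383 normalized counts, 1.64-fold (log2 fold change 0.72, SE 0.08, adjusted p = 2e-06). Casp8, the initiator of death receptor apoptosis that also restrains necroptosis, went from 1068 to 1118 normalized counts in WT to 1506 to 1853 in WTLPS (log2 fold change 0.60, SE 0.11, adjusted p = 0.00025). No library of WTLPS overlapped WT for any of these 5 genes. The groups did not overlap for the uncalled Pycard either, and the share of all genes without overlap was not counted.

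Nlrp1b, whose protein is activated by proteolysis, moved the opposite way. It had 423, 415 and 471 normalized counts in WT and 105, 107 and 90.4 in WTLPS. The groups were far apart, and the fitted fall was 4.33-fold (log2 fold change -2.11, SE 0.14, adjusted p = 6.3e-09). The remaining sensors form the NAIP-NLRC4 inflammasome, in which NAIP5 binds flagellin, NAIP2 binds the rod protein of bacterial secretion systems, and NLRC4 assembles with either. Naip5 had 783 to 814 normalized counts in WT and 802 to 811 in WTLPS (log2 fold change 0.01, 95% interval -0.13 to 0.15). Naip2 (-0.01, -0.32 to 0.31), Nlrc4 (-0.28, -0.63 to 0.08) and Pycard (-0.21, -0.41 to -0.01) did not pass the test, with adjusted p of 0.98, 0.16 and 0.069. Without WTLPS replicate 1 and KOLPS replicate 2, Nlrc4 (-0.37, adjusted p = 0.00076) and Naip2 (-0.19, adjusted p = 0.0081) were also lower after LPS, making 3 genes lower, and without WT replicate 1 Pycard was (-0.34, adjusted p = 0.017). The share of all genes called in these fits was not counted.

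The scale mattered for the smaller LPS changes. On log2(TPM + 1), the median of all genes was 0.44 lower in WTLPS than in WT, a shift of -0.44. On that scale limma called 3 of the 10 genes higher and 5 lower, in place of 5 and 1. The share of all genes that limma called was not counted, so these counts have no background beside them. Gsdmd (0.17, adjusted p = 0.084) and Casp8 (0.12, adjusted p = 0.33) were no longer called, and Nlrc4, Naip2, Naip5 and Pycard were called lower. Relative to the median of all genes, Gsdmd was at 0.61, Casp8 at 0.56 and Naip5 at -0.05 on the TPM scale. Nlrp3, Casp4 and Casp1 stayed higher and Nlrp1b lower on both scales.

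**Figure D2:**
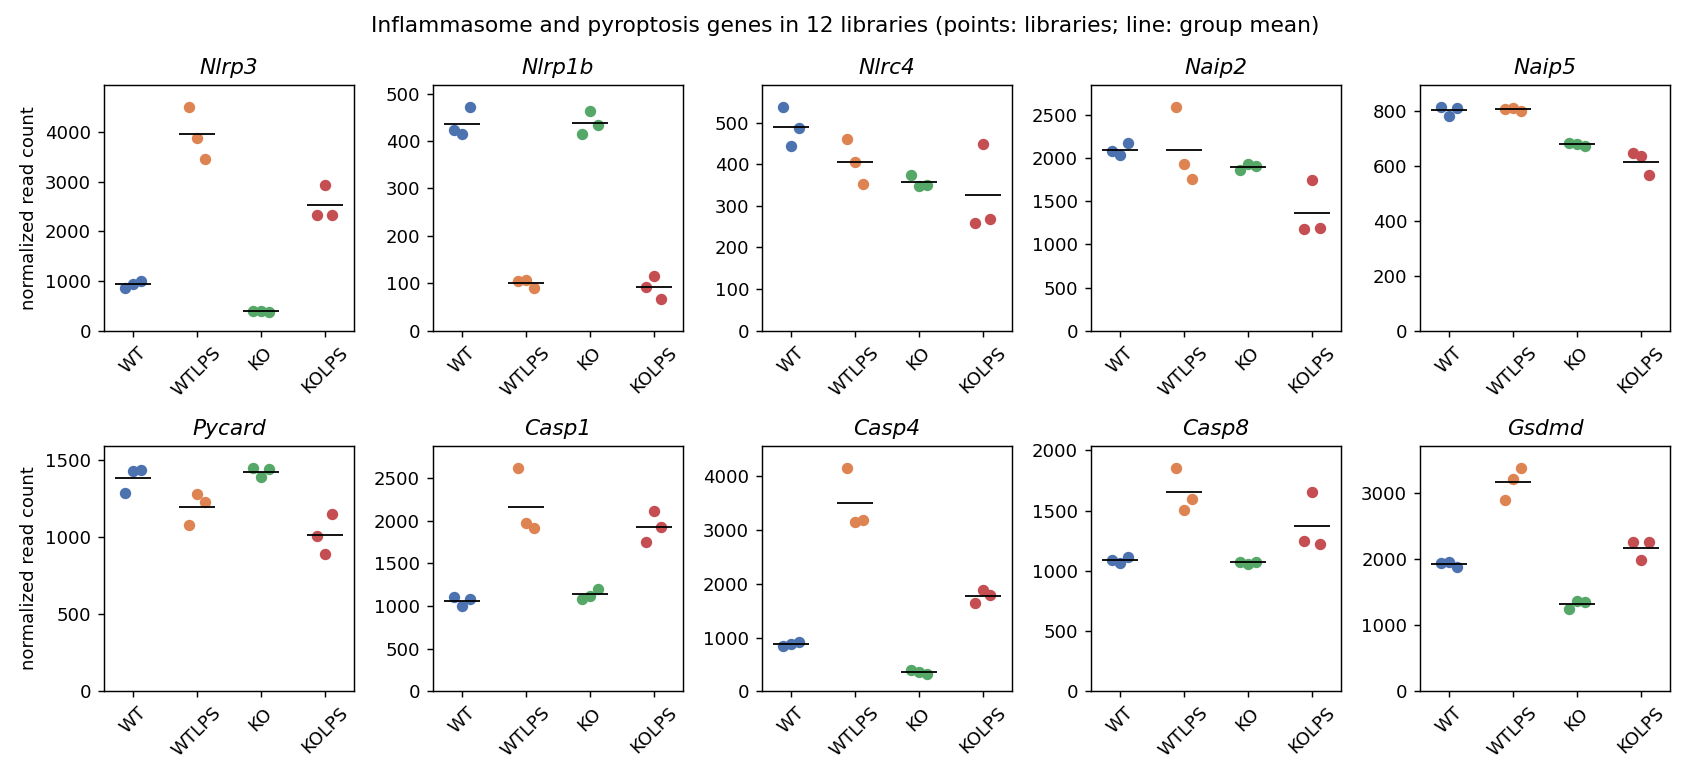
Normalized read counts of the 10 genes in each of the 12 libraries, grouped as WT, WTLPS, KO and KOLPS; each point is a library, each line a group mean, and each panel starts at 0. Nlrp3, Casp4 and Gsdmd are lower in KO than in WT and lower in KOLPS than in WTLPS with no overlap, whereas Nlrp1b was called for LPS in both genotypes and in neither comparison of genotypes.

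The comparison of KO with WT addressed what CTCF deletion did before stimulation. Of the 10 genes, 5 fell (Casp4, Nlrp3, Gsdmd, Nlrc4 and Naip5) and 0 rose, against 22.4% lower and 22.2% higher among all genes. By edgeR's unadjusted p under 0.05 the number higher was also 0, as it was by DESeq2 and by limma on TPM. The median log2 fold change of the 10 genes was -0.19, and that of all genes -0.01. Among roles, 3 of 5 sensors, 1 of 3 caspases and the executioner fell.

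Casp4 and Nlrp3 differed most. Casp4 had 399, 360 and 317 normalized counts in KO, below 849, 891 and 921 in WT, which was 2.47-fold lower (log2 fold change -1.31, SE 0.11, adjusted p = 4.6e-07). Nlrp3 had 398, 397 and 379 in KO, below 860, 942 and 1010 in WT, which was 2.39-fold lower (log2 fold change -1.26, SE 0.11, adjusted p = 6.6e-07). Gsdmd had 1247, 1377 and 1356 in KO, 1.45-fold lower (log2 fold change -0.54, SE 0.08, adjusted p = 6.3e-05). For each of these 3 genes, all KO libraries were below all WT libraries. That also held for Naip2, which was not called, and the share of all genes without overlap was not counted.

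Smaller falls were seen for 2 sensors of the NAIP-NLRC4 branch. Naip5 had 685, 680 and 672 normalized counts in KO and 814, 783 and 813 in WT (log2 fold change -0.24, SE 0.06, adjusted p = 0.0074). The Naip5 call was lost without the filter on low counts (adjusted p = 0.052). Nlrc4 had 375, 347 and 351 in KO and 537, 444 and 487 in WT (log2 fold change -0.45, SE 0.16, adjusted p = 0.036). Leaving out WT replicate 1 or 3 or any KO library raised the adjusted p of Nlrc4 to between 0.059 and 0.1, with log2 fold changes of -0.49 to -0.42. Naip2 was not called (-0.14, 95% interval -0.46 to 0.17).

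The other genes did not pass the test, and their intervals were narrow. Casp8 had 1060 to 1077 normalized counts in KO and 1068 to 1118 in WT (log2 fold change -0.03, 95% interval -0.26 to 0.20). Nlrp1b differed by 0.00 (-0.24 to 0.25) and Pycard by 0.04 (-0.16 to 0.24). For Pycard the sign depended on the scale. On log2(TPM + 1) it differed by -0.39, or -0.29 relative to the median of all genes, and was not called either. Pycard had 105 to 117 TPM in KO and 141 to 149 TPM in WT. Casp1 had 1087 to 1201 in KO and 998 to 1107 in WT (0.10, -0.15 to 0.34), so the interval for Casp1 lay wholly above the interval of -1.55 to -1.06 for its neighbour Casp4.

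**Figure D3:**
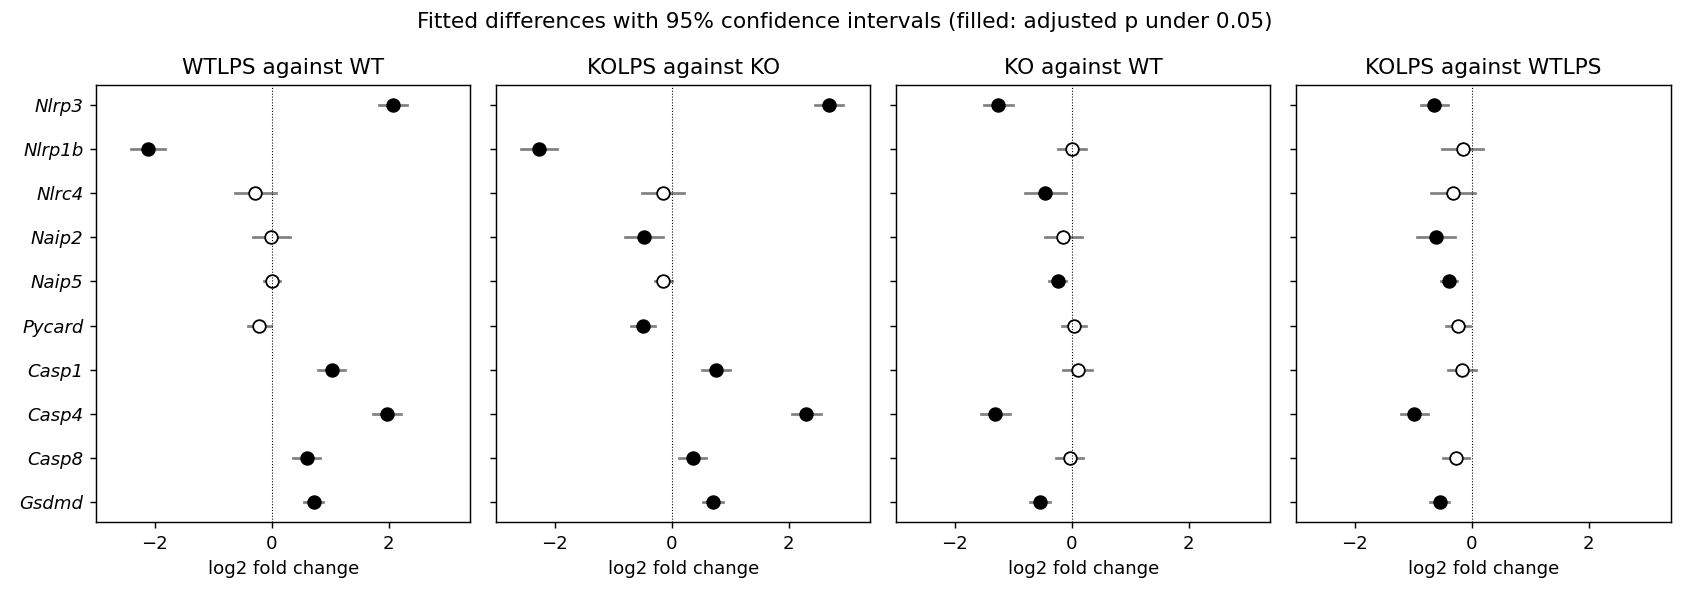
Fitted log2 fold changes of the 10 genes in 4 comparisons, with 95% confidence intervals as bars; filled points have an adjusted p under 0.05. LPS changed the same genes upward in both genotypes (5 filled points above 0 in each), and every filled point in the KO against WT and KOLPS against WTLPS panels is below 0.

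The same genotypes were then compared after LPS. In the comparison of KOLPS with WTLPS, 5 of the 10 genes were lower (Casp4, Nlrp3, Naip2, Gsdmd and Naip5) and 0 higher, with 23.3% lower and 21.4% higher among all genes. The number higher was 0 as well by edgeR's unadjusted p under 0.05, by DESeq2 and by limma on TPM. Nlrp3, Casp4, Gsdmd and Naip5 were thus lower in CTCF-deficient cells in both states. The comparisons share no library, but both come from the same fit. The labels do not say whether stimulated and unstimulated libraries came from separate animals or cultures. The median log2 fold change of the 10 genes was -0.36, and that of all genes -0.03. All 10 fitted values were below 0, from -0.98 to -0.15, but 5 of them were not called. The share of all genes with a fitted value below 0 was not counted.

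Casp4 had 1651, 1884 and 1786 normalized counts in KOLPS and 4153, 3158 and 3178 in WTLPS. Every KOLPS library was above every unstimulated WT library and below every WTLPS library, and the fitted difference was 1.97-fold (log2 fold change -0.98, SE 0.11, adjusted p = 4.8e-06). Nlrp3 had 2321, 2936 and 2329 in KOLPS, 1.56-fold below WTLPS (log2 fold change -0.64, SE 0.11, adjusted p = 0.00023). Gsdmd had 2270, 1994 and 2258, 1.46-fold below WTLPS (log2 fold change -0.54, SE 0.08, adjusted p = 5.8e-05). Stimulated KO cells thus held Gsdmd at 1994 to 2270 normalized counts, close above the 1879 to 1962 of unstimulated WT cells. This order depended on the scale, since Gsdmd had 129 to 148 TPM in KOLPS and 190 to 195 TPM in WT.

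Naip2 was called in the stimulated state only, although the difference of the differences did not pass its own test (interaction -0.47, SE 0.21, adjusted p = 0.15). It had 1174, 1748 and 1191 normalized counts in KOLPS and 2592, 1938 and 1756 in WTLPS (log2 fold change -0.61, SE 0.15, adjusted p = 0.0042). The highest KOLPS library and the lowest WTLPS library were 1748 and 1756, so the groups barely separated, and the extremes were KOLPS replicate 2 and WTLPS replicate 1. Without these libraries the log2 fold change of Naip2 was -0.64. Naip5 had 646, 635 and 566 in KOLPS and 809, 811 and 802 in WTLPS (log2 fold change -0.39, SE 0.07, adjusted p = 0.00025).

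Nlrc4, Pycard and Casp8 missed the threshold with all libraries, at log2 fold changes of -0.32, -0.24 and -0.27 and adjusted p of 0.15, 0.058 and 0.058. Without WTLPS replicate 1 and KOLPS replicate 2 these 3 were called, at -0.52, -0.22 and -0.33, and 8 genes in all were lower. That fit was chosen after seeing the data, and the share of all genes it calls was not counted. Casp1 (-0.17, 95% interval -0.41 to 0.07) and Nlrp1b (-0.15, -0.50 to 0.19) were not called in either fit.

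The ratio of neighbouring Casp4 to Casp1 followed genotype and stimulus. Casp1 (ENSMUSG00000025888.6) lies at chr9:5298517-5307265 and Casp4 (ENSMUSG00000033538.13) at chr9:5308828-5336783 on mm10, both on the plus strand and 1562 bases apart. The ratio of Casp4 to Casp1 in TPM was 1.05 to 1.25 in WT, 0.364 to 0.468 in KO, 2.12 to 2.15 in WTLPS and 1.18 to 1.32 in KOLPS. KO and WT did not overlap, nor did KOLPS and WTLPS, and an exact two-sided permutation test of 3 libraries against 3 gave p = 0.1 for each, the smallest it can give. Casp12, on the other side of Casp4 by 8646 bases, was not past the filter on low counts.

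Flanking genes often differed in direction from the members. Nlrp3 (chr11:59541568-59566956) was lower in KO, but Zkscan17, the protein-coding gene 14816 bases upstream, was higher (log2 fold change 0.89, SE 0.07, adjusted p = 2.3e-07). Gsdmd (chr15:75862327-75867408) fell in KO, while Zc3h3, 20411 bases upstream, rose (0.31, SE 0.09, adjusted p = 0.013). Cflar, 36489 bases upstream of Casp8 (chr1:58795374-58847503) and encoding the inhibitor cFLIP that pairs with caspase-8, was lower in KO (-0.74, SE 0.13, adjusted p = 0.00029), at a Casp8 change of -0.03. Around Nlrc4 (chr17:74425438-74459142, minus strand), Slc30a6 (0.26, adjusted p = 0.078) and Yipf4 (-0.18, adjusted p = 0.16) were not called in KO against WT. Nlrp1a, next to Nlrp1b (chr11:71153102-71230733, minus strand), differed by 0.28 (adjusted p = 0.15) and Trak2, on the far side of Casp8, by 0.16 (adjusted p = 0.19). Olfr222, Wscd1, Trim72, Gria4 and Mroh6, which flank Nlrp3, Nlrp1b, Pycard (chr7:127989708-127993867, minus strand), Casp1 and Gsdmd, were not past the filter.

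Naip2 (chr13:100144063-100202092) and Naip5 (chr13:100211739-100246323) sit on the minus strand in a cluster of near-identical copies. Of the 100-base windows of their transcripts, 4.44% in Naip2 and 16.161% in Naip5 occurred in another Naip gene, and RSEM divides such reads by estimation. Naip2 held 57.0% of the cluster's counts in WT, 58.8% in WTLPS, 53.5% in KO and 54.1% in KOLPS, and Naip5 held 21.8%, 23.1%, 19.1% and 24.5%. Naip6, a flagellin sensor like NAIP5, was higher in KO than in WT (0.30, SE 0.11, adjusted p = 0.037) where Naip5 was lower. Summed over the cluster, KO did not differ from WT (-0.06, adjusted p = 0.73), and KOLPS was below WTLPS (-0.49, SE 0.11, adjusted p = 0.0031). The copy to which the Naip5 fall in unstimulated KO belongs is thus uncertain. Smn1, beside the cluster, was lower in KO as well (-0.26, SE 0.10, adjusted p = 0.038).

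For Pycard, 10.335% of windows were shared with Gm45205, an antisense transcript at 5.85 to 40.5 normalized counts, against 889 to 1448 for Pycard. Whether the counting used strand is not given in the sources used here, so reads over the shared stretch cannot be told apart. Casp8 shared 0.717% of windows with Gm20257 and Nlrp1b 0.048% with Nlrp1a, and the other 5 genes shared none.

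The LPS response was next measured in CTCF-deficient cells. In KOLPS against KO, the same 5 genes rose (Nlrp3, Casp4, Casp1, Gsdmd and Casp8), and 3 fell (Nlrp1b, Pycard and Naip2). Of all genes, 33.6% rose and 33.9% fell. The median log2 fold change of the 10 genes was 0.11, and that of all genes -0.02. On log2(TPM + 1), on which the median of all genes shifted by -0.38, 3 rose and 5 fell, with the share of all genes not counted. On that scale Gsdmd (0.18, adjusted p = 0.066) and Casp8 (0.01, adjusted p = 0.95) lost their calls in limma.

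Nlrp3 went from 398, 397 and 379 normalized counts in KO to 2321, 2936 and 2329 in KOLPS, 6.45-fold (log2 fold change 2.69, SE 0.11, adjusted p = 8.2e-11). Casp4 rose 4.94-fold, from 317 to 399 in KO to 1651 to 1884 in KOLPS (2.30, SE 0.11, adjusted p = 4.2e-10). Both genes started lower and ended lower in KO cells, with fitted fold changes above those of WT cells. Gsdmd rose 1.64-fold (0.71, SE 0.08, adjusted p = 1.9e-06), Casp1 1.70-fold (0.76, SE 0.11, adjusted p = 3.2e-05) and Casp8 1.28-fold (0.36, SE 0.11, adjusted p = 0.0084).

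Among the genes that fell, Nlrp1b had 414, 464 and 434 normalized counts in KO and 91.4, 115 and 67.3 in KOLPS, 4.81-fold lower (log2 fold change -2.27, SE 0.14, adjusted p = 2.8e-09). Pycard had 1448, 1388 and 1440 in KO and 1009, 889 and 1149 in KOLPS (-0.49, SE 0.09, adjusted p = 0.00038). Naip2 had 1860 to 1934 in KO and 1174 to 1748 in KOLPS (-0.47, SE 0.15, adjusted p = 0.012). The Naip2 call was lost without KOLPS replicate 1 (adjusted p = 0.062) or replicate 3 (adjusted p = 0.063). Without WTLPS replicate 1 and KOLPS replicate 2, Nlrc4 (-0.44) and Naip5 (-0.17) were called lower too, making 5, with the share of all genes not counted.

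The interaction term asked directly whether the LPS response differed between genotypes. Of the 10 genes, only Nlrp3 was called, with an LPS response 1.53-fold larger in KO (difference of log2 fold changes 0.62, SE 0.16, 95% interval 0.28 to 0.95, adjusted p = 0.015), and 0 genes had a called term below 0, against 1 by edgeR's unadjusted p under 0.05 and 0 by DESeq2. Among all genes, the term was called above 0 for 8.70% and below 0 for 8.75%. The Nlrp3 interaction was between 0.50 and 0.74 in every alternative fit, with an adjusted p of at most 0.048. Gsdmd had -0.00 (95% interval -0.24 to 0.23), so its LPS responses in the genotypes were within that range of each other. Casp4 had 0.33 (-0.01 to 0.66, adjusted p = 0.18) and Nlrp1b -0.15 (-0.58 to 0.27, adjusted p = 0.65). Without WTLPS replicate 1 and KOLPS replicate 2, Casp4 was called at 0.42, and Naip2 (-0.50), Casp8 (-0.30) and Pycard (-0.26) were called with terms below 0. Of these, Casp8 rose less in KO (0.21 on the log2 scale, 0.51 in WT), whereas Naip2 (-0.69 in KO, -0.19 in WT) and Pycard (-0.40 in KO, -0.14 in WT) had LPS changes further below 0 in KO. Leaving out WTLPS replicate 1 alone gave 0.47 for Casp4 (adjusted p = 0.018), and leaving out KOLPS replicate 2 alone gave -0.68 for Naip2 (adjusted p = 0.0067) and -0.39 for Casp8 (adjusted p = 0.02).

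**Figure D4:**
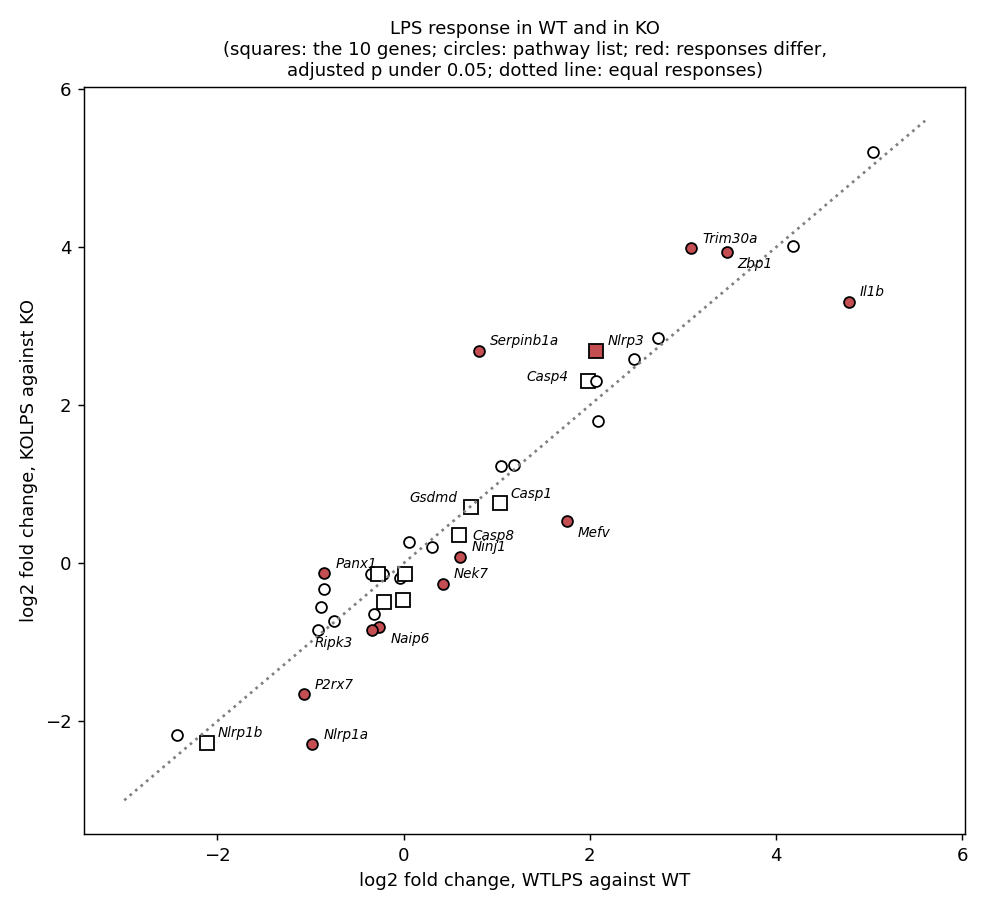
LPS response in WT (horizontal) against LPS response in KO (vertical) as log2 fold changes for the 10 genes (squares) and tested genes of the wider pathway (circles), with red marking genes whose responses differed at an adjusted p under 0.05 and the dotted line equal responses. Nlrp3 is the only red square, above the line at 2.07 and 2.69, and Il1b lies below it at 4.78 and 3.31.

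The wider pathway was described from a list of 38 further genes, of which 33 were tested. Nlrp6, Nlrp12 and Casp12 were below the filter, and Pydc3 and Pydc4 had no identifier. In WTLPS against WT 17 of 33 rose and 9 fell, and in KOLPS against KO 16 rose and 9 fell. Limma on log2(TPM + 1) gave 13 and 14 in each, with the share of all genes not counted. In KO against WT 6 were higher and 13 lower, and in KOLPS against WTLPS 5 were higher and 16 lower. As shares of the 33, these were 18.2% higher and 39.4% lower in KO against WT and 15.2% and 48.5% in KOLPS against WTLPS, beside 22.2%, 22.4%, 21.4% and 23.3% of all genes. For LPS the shares were 51.5% higher and 27.3% lower in WT and 48.5% and 27.3% in KO, beside 30.0%, 30.2%, 33.6% and 33.9% of all genes. Median log2 fold changes of the list were 0.30, 0.17, -0.14 and -0.32 in that order, beside -0.02, -0.02, -0.01 and -0.03 for all genes.

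Substrates of the machinery behaved differently from one another. Il1b, the precursor of interleukin-1 beta, had 1587, 1588 and 1574 normalized counts in WT and 3983, 3912 and 3741 in KO. It was thus higher in every KO library before stimulation (log2 fold change 1.29, SE 0.10, adjusted p = 1.1e-07), the opposite direction to Nlrp3, Casp4 and Gsdmd. After LPS it had 50147, 41274 and 39482 in WTLPS and 33401, 41067 and 41165 in KOLPS, overlapping groups that were not called different (-0.18, SE 0.10, adjusted p = 0.15). The LPS response of Il1b was 4.78 in WT and 3.31 in KO on the log2 scale, and the difference of -1.47 passed the test (SE 0.14, adjusted p = 1e-05).

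Il18, the precursor of interleukin-18, had the opposite genotype difference to Il1b. It had 113, 130 and 134 normalized counts in WT, 47.6, 34.6 and 40.8 in KO, 262, 276 and 246 in WTLPS and 91.4, 78.4 and 119 in KOLPS. It was lower in KO (-1.61, SE 0.17, adjusted p = 2e-06) and in KOLPS (-1.44, SE 0.15, adjusted p = 1.9e-06), and rose with LPS in both genotypes (1.05 and 1.23). Il1a, released as a danger signal by lysed cells, rose with LPS in WT (4.18, SE 0.19) and KO (4.01, SE 0.19) and was not called between genotypes (-0.15, adjusted p = 0.56, and -0.32, adjusted p = 0.18). Of 6 genes for substrates and lysis, 3 were lower in KOLPS than in WTLPS (Il18, Ninj1 and Hmgb1) and 0 higher, beside 23.3% lower and 21.4% higher among all genes. Ninj1 encodes the protein that ruptures the membrane after gasdermin pores form (-0.71, SE 0.09, adjusted p = 1.7e-05).

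Among 6 tested inhibitors, 5 were lower in KO than in WT (Serpinb1a, Nlrc3, Trim30a, Cflar and Tnfaip3) and 1 higher (Nlrx1), with 22.4% lower and 22.2% higher among all genes. Serpinb1a, an inhibitor of neutrophil serine proteases and of caspase-1 clustering, had 180, 191 and 175 normalized counts in WT and 19.7, 20.2 and 36.1 in KO (log2 fold change -2.84, SE 0.21, adjusted p = 3.6e-08). With LPS it reached 143, 171 and 180 in KOLPS against 379, 294 and 288 in WTLPS. Its log2 fold change with LPS was larger in KO by 1.88 (SE 0.26, adjusted p = 0.00018). Trim30a, a ubiquitin ligase that restrains NLRP3, rose 3.09 in WT and 3.99 in KO on the log2 scale. Nlrc3 was lower in KO at low counts, 24.8 to 30.3 in WT and 7.68 to 16.1 in KO (-1.25, SE 0.43, adjusted p = 0.026). Nlrx1, a mitochondrial NLR protein, was higher in KO (0.93, SE 0.10, adjusted p = 5.7e-06) and in KOLPS (1.27, SE 0.12, adjusted p = 8.5e-07).

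Other sensors followed no common direction. Aim2, the DNA sensor, rose with LPS in both genotypes (1.18 and 1.24) and was not called between genotypes (-0.06 and -0.01). Mefv, which encodes pyrin, had 327 to 373 normalized counts in WT and 329 to 356 in KO, but 1043 to 1320 in WTLPS and 479 to 532 in KOLPS. The stimulated groups did not overlap (log2 fold change -1.2, SE 0.09, adjusted p = 1.2e-07). Nlrp1a, the paralog beside Nlrp1b, fell with LPS by 0.98 on the log2 scale in WT and dropped by 2.29 in KO, and was lower in KOLPS than in WTLPS (-1.03, SE 0.21, adjusted p = 0.0009). Naip1, another sensor of the cluster, fell with LPS in both genotypes (-2.43 and -2.18), at 2.34 to 33.6 normalized counts.

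Among NLRP3 triggers and partners, Gbp5, a guanylate-binding protein that acts on LPS release and NLRP3, had the largest LPS change of the list, from 602 to 623 normalized counts in WT to 18511 to 22808 in WTLPS (5.04, SE 0.09) and from 274 to 303 in KO to 9649 to 11519 in KOLPS (5.21, SE 0.09). It was lower in KO (-1.11, adjusted p = 3.6e-07) and in KOLPS (-0.95, adjusted p = 7.7e-07), like Nlrp3 and Casp4. P2rx7, the ATP-gated channel that triggers NLRP3, fell with LPS in WT (-1.07) and further in KO (-1.66, SE 0.10, adjusted p = 3.2e-09). Panx1 was higher in KOLPS than in WTLPS (0.72, SE 0.15, adjusted p = 0.0015).

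The LPS response of 13 of the 33 pathway genes differed between genotypes, with the log2 fold change in KO minus that in WT above 0 for 4 (Serpinb1a, Trim30a, Panx1 and Zbp1) and below 0 for 9, among them Il1b, Nlrp1a, Mefv, Nek7, P2rx7, Naip6, Ninj1 and Ripk3. As shares of the 33 these were 12.1% above 0 and 27.3% below 0, beside 8.70% and 8.75% of all genes. The sign is not the size of the response, since Panx1 fell less with LPS in KO, and Nlrp1a, P2rx7, Naip6 and Ripk3 had LPS changes further below 0 in KO. On log2(TPM + 1) the counts were 4 and 5, in place of 4 and 9, with the share of all genes not counted.

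The genes closest in pattern to each member were sought among 9338 genes with a mean of at least 100 normalized counts, by the root mean square difference of centred log2 values over the 12 libraries. For Nlrp3 these were Trim25 (0.141), a ubiquitin ligase of RNA sensing, and Plk2 (0.179), a kinase. Trim25 had 3547 to 3654 normalized counts in WT, 12364 to 13069 in WTLPS, 1250 to 1300 in KO and 8392 to 8993 in KOLPS. For Casp4 they were Atp10a (0.134) and Hcar2 (0.160), a receptor for niacin and ketone bodies, and for Gsdmd they were Stx16 (0.0620) and Traf6 (0.0819), the ubiquitin ligase downstream of TLR4. Traf6 had 914 to 943 normalized counts in WT, 1409 to 1625 in WTLPS, 619 to 684 in KO and 1028 to 1088 in KOLPS. Its groups had the same order as those of Gsdmd, which follows from its choice by pattern.

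For Nlrp1b the nearest were Arrb1 (0.141), which encodes beta-arrestin 1, and Sec22c (0.161), for Casp1 Mitf (0.0632) and Dock10 (0.0848), and for Casp8 Atp11b (0.0534) and Ino80 (0.0752). Nlrc4 was nearest to Noc3l (0.107) and Bcl2l13 (0.130), Naip2 to Sass6 (0.0799), Naip5 to Gtf3c2 (0.0536) and Fxyd5 (0.0661), and Pycard to Epn1 (0.0630) and Dguok (0.0677). Within the 10 genes, Nlrp3 and Casp4 were each other's nearest at 0.189, Naip2 and Nlrc4 at 0.171, and Casp1 and Casp8 at 0.233, while Nlrp1b was 0.954 from its nearest, Pycard.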

How the data were processed

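RNA-seq of 12 BMDC libraries was analysed from gene tables. Reads had been trimmed (Trim Galore), mapped to mm10 by STAR (2.5.1 in the submitters' processing notes) and quantified by RSEM. The authors deposited expected counts per gene, TPM (which keeps no depth) and effective length, the last of which entered no test. The labels name ribosomal RNA depletion and the study's methods a stranded poly(A) kit.

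Expected counts (12769773 to 16586334 per library, which sets the precision) were rounded and normalized by TMM in edgeR 4.0.16 (R 4.3.3). The 14008 genes passing filterByExpr were fitted in 1 model over the 12 libraries with the quasi-likelihood test and Benjamini-Hochberg adjustment, and called at an adjusted p under 0.05. The scripts were tested on simulated data. No replicate pair matched within sampling noise (lowest chi-square per degree of freedom 1.67 over 12 pairs). Alternatives were DESeq2 1.42.0, limma 3.58.1 on log2 TPM with pseudocounts of 1 and 0.1, other filters and size factors, a replicate block, the study's fold cutoffs and leaving out libraries. Omitting WTLPS replicate 1 and KOLPS replicate 2 together was chosen after seeing the data. Shares of all genes called were counted only for the edgeR model described first and not for any alternative.

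Gene positions were taken from GENCODE M21 (55154 identifiers matched) and promoters from RefSeq. The 10 genes, the pathway list and the markers were chosen with earlier results of these data known. Named by rule are the 10 genes, Ctcf, Il1b, Il1a, Il18, up to 3 pathway genes higher and 3 lower per comparison by size of fold change, the nearest 2 genes in pattern and flanking coding genes. Some genes that this rule names are not reported here. Other pathway genes were named after their values were seen.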

Additional observations from a re-analysis of the deposited data

Results flagged for a closer look

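A difference in LPS response between genotypes, by the interaction term, was found for 1 of the 10 genes and 13 pathway genes, with 8.70% of all genes called above 0 and 8.75% below 0 for the term (log2 fold change in KO minus that in WT). The fold change of Nlrp3 with LPS was larger in KO, by 0.62 on the log2 scale (SE 0.16, adjusted p = 0.015, edgeR). Its mean normalized counts went from 937 to 3950 in WT and, from a lower start, from 392 to 2528 in KO.

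The term was also above 0 for Serpinb1a (1.88, SE 0.26), Trim30a (0.90, SE 0.10), Panx1 (0.73, SE 0.20) and Zbp1 (0.46, SE 0.11). On the log2 scale Serpinb1a, Trim30a and Zbp1 rose more in KO, whereas Panx1 fell less (-0.85 in WT and -0.13 in KO). Those that rose started lower in KO and also ended lower after LPS. Mean normalized counts of Trim30a went from 1474 to 12548 in WT and from 693 to 11003 in KO. The term was below 0 for Il1b (-1.47, SE 0.14), Nlrp1a (-1.31, SE 0.26), Mefv (-1.20, SE 0.13), Nek7 (-0.67, SE 0.13), P2rx7 (-0.59, SE 0.14), Naip6 (-0.55, SE 0.16), Ninj1 (-0.54, SE 0.13) and Ripk3 (-0.51, SE 0.11). Nek7, the kinase that binds NLRP3, rose with LPS in WT (0.42, adjusted p = 0.0013) and fell in KO (-0.26, adjusted p = 0.024). For Nlrp1a, P2rx7, Naip6 and Ripk3 the LPS change was below 0 in both genotypes and further below 0 in KO.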

How the results depend on the processing

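Of 50 log2 fold changes (10 genes in 5 comparisons), 25 were called, and of 404 alternative values of these, 387 kept the call, 17 lost it and 0 changed sign; 18 kept it in every alternative, and of 446 alternatives of uncalled values 43 gained one. The cause of the changes below was not tested, and shares of all genes called were not counted for the alternatives. On TPM with either pseudocount, genes of the 10 called were 3 higher and 5 lower in WTLPS against WT and also 3 and 5 in KOLPS against KO, pathway genes lower were 14 and 14, those with an interaction below 0 were 5, Naip5 in WTLPS against WT was -0.48 and -0.52, and Ctcf in KOLPS against KO was -0.62 and -0.65. With the study's fold cutoffs, WTLPS against WT gave 3 of the 10 higher and 2 pathway genes lower, KOLPS against WTLPS 3 lower with 3 pathway genes higher, and KOLPS against KO 2 higher, 1 lower and 3 pathway genes lower. In WTLPS against WT the number lower was 2 in the fit to 6 libraries, 3 with no filter and 2 with at least 10 counts in every library; with no filter 1 had an interaction below 0. Leaving out libraries gave 1 to 3 lower in WTLPS against WT, 5 to 8 lower in KOLPS against WTLPS, 2 to 5 lower in KOLPS against KO, 1 to 2 interactions above 0 (2 without WTLPS replicate 1) and 0 to 3 below 0 (2 without KOLPS replicate 2), each upper end but that for interactions above 0 being reached only without both WTLPS replicate 1 and KOLPS replicate 2. With a replicate block, pathway counts in KOLPS against WTLPS were 6 and 15 in place of 5 and 16 and no other count changed. Of 18 same-numbered pairs 1 correlated above 0.1 (range -0.286 to 0.112), so no pairing by number was seen. With 3 libraries per group this check cannot show whether same-numbered libraries shared an animal or culture.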
